A study of Rattus norvegicus with 4 samples.

Results

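The transcript described here is that of Cd36, the fatty acid translocase, measured by 1 spotted cDNA clone, RGIAU13, of the 6240 clones on the array. Livers of young female Sprague Dawley rats were compared with livers of young male rats on 4 two-colour arrays, both sexes being untreated and 3 months of age according to the methods of the study. Each array held the liver RNA of 1 female animal and 1 male animal, so every spot gives a ratio of female over male, and the 4 arrays are the replicates. The female sample carried the dye Cy5 on arrays 3 and 4 and Cy3 on arrays 1 and 2, with the male sample in the other dye. Whole liver was used, and in such bulk RNA fewer cells of a type and less RNA per cell cannot be told apart.

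CD36 is a membrane glycoprotein of the class B scavenger receptors. It binds long-chain fatty acids and promotes their entry into cells, and on macrophages it also takes up oxidised lipoproteins. Heart, muscle and fat cells, which burn or store fatty acids, are known for high CD36, whereas hepatocytes have less of it under normal conditions. Macrophages, endothelial cells and platelets carry CD36 as well, so that liver RNA may hold Cd36 transcripts from several cell types. In mouse liver the gene is a known target of the nuclear receptors PPARγ, LXR and PXR.

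The name of the clone was inferred from its value and not read from an annotation. The deposited rows carry clone identifiers without gene names, and RGIAU13 was chosen because 2 to the power of its mean log2 ratio equals, to 2 decimals, the ratio tabulated for the cd36 antigen. Of the 2070 clones measured on at least 3 arrays, exactly 1 met this, and of the 3191 clones measured on any array also exactly 1. The clone next above it in mean, RNABD06, had a ratio of 6.10 and the clone next below, RNABA94, a ratio of 5.6, both outside the match. The study describes its tabulated ratios as medians, but with the median over arrays in place of the mean 0 clones matched, the ratio of RGIAU13 by its median being 5.73. Since the mean chose the clone, its sex difference is given as a description and was not tested. An entry built from several clones together would not be found in this way.

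In the RefSeq annotation of the rat assembly GRCr8 (a reference table and not the annotation of these arrays) Cd36 lies on chromosome 4. It is followed there by Cd36l1, by a protein-coding gene listed only under a locus number and by Cd36-ps1. A cDNA spot can bind transcripts of closely related genes, and which of them contributed to the signal of RGIAU13 was not tested.

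Cd36 transcript was higher in female liver on every array. The ratio of female over male was 8.31 and 4.16 on arrays 1 and 2, and 4.55 and 7.23 on arrays 3 and 4. On the log2 scale these are 3.06, 2.06, 2.18 and 2.85, with a mean of 2.54 ± 0.49 (SD, n = 4) and a standard error of 0.25. The mean corresponds to a level 5.8 times as high in female as in male liver. The values formed a higher pair, arrays 1 and 4, and a lower pair, arrays 2 and 3. The highest and the lowest array differed by a factor of 2.0, and the smallest ratio was still above 4. The labels number the animals of arrays 2 to 4 differently and leave those of array 1 unnumbered. The spread over arrays therefore holds differences between animals and technical error together.

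**Figure D1:**
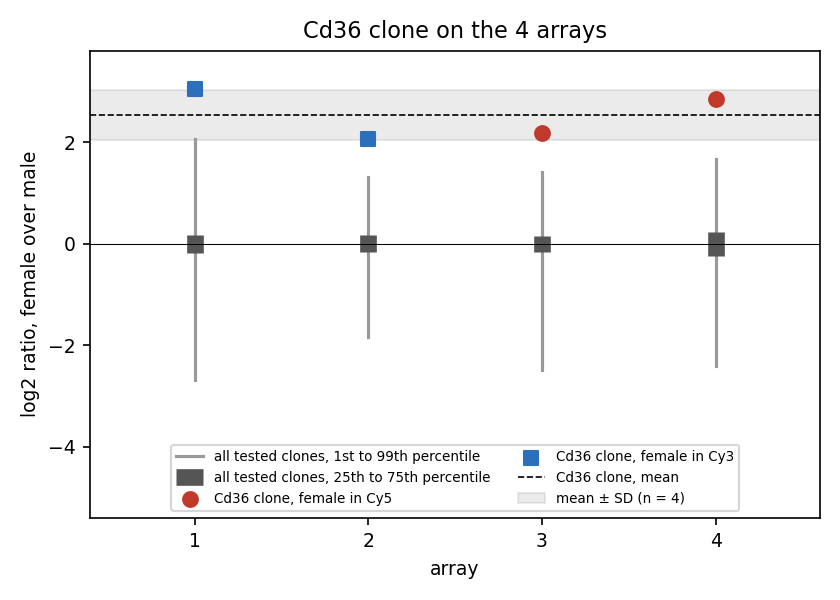
Log2 ratio of female over male for the Cd36 clone (points, coloured by the dye of the female sample) on each of the 4 arrays, with its mean and SD (dashed line and band) and the range of all tested clones (thin bars, 1st to 99th percentile; thick bars, 25th to 75th). The Cd36 clone lies above the 99th percentile on all 4 arrays, between 2.06 and 3.06.

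The bulk of the array gives the scale for these values. The 99th percentile of the tested clones was 2.07, 1.31, 1.41 and 1.67 on arrays 1 to 4, and the Cd36 clone exceeded it on each. The medians of these clones lay between -0.0040 and 0.013. By mean, Cd36 ranked 9th of 2070 from the female-predominant end. There were 32 tested clones with a mean over 1 and 14 with a mean over 2 on the log2 scale, Cd36 among them. Markers of macrophages, endothelial cells and platelets could not be read without gene names. Among the entries that the study tabulated with a female over male ratio, the red cell is represented by 3 globin entries. These matched 7 clones tentatively, all lower in female liver with means from -2.24 to -1.83 (a direction that the match itself set), and the part of any other cell type in the Cd36 ratio was not tested. The order by mean is a description, since the same means gave the clone its name.

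Its rank on single arrays varied. Among tested clones the Cd36 clone was 10th on array 1, 10th on array 2 and 10th on array 3, but 2nd on array 4. On array 4 only the clone matched to senescence marker protein 2A, a hydroxysteroid sulfotransferase, was higher (2.85 for Cd36, against 2.97). The next clone there was RNABK74, matched to an alcohol sulfotransferase-like transcript, with 2.85. When clones measured on fewer than 3 arrays were also counted, Cd36 was 16th of 2890 on array 1, 10th of 2298 on array 2, 14th of 2243 on array 3 and 2nd of 1871 on array 4. Array 4 had the fewest measured clones and the widest central spread of ratios, with a median absolute deviation of 0.36, against 0.26, 0.25 and 0.25 on arrays 1 to 3. In the tails array 1 was wider, its tested clones reaching from -2.69 to 2.07 between the 1st and the 99th percentile, against -2.41 to 1.67 on array 4. With the arrays scaled to equal spread the Cd36 value on array 4 was 2.26, against 3.26, 2.3 and 2.43 on arrays 1 to 3, so that it no longer stood with array 1. Its mean was then 2.56. The part of the spread of either array in the Cd36 values was not tested.

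**Figure D2:**
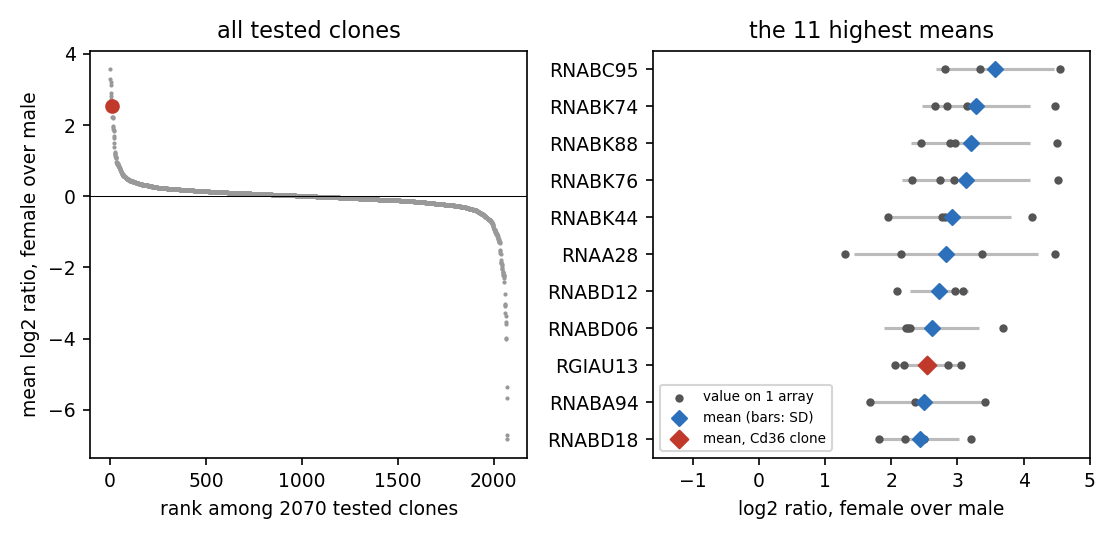
Left, mean log2 ratio of female over male for all 2070 tested clones in order of rank, with the Cd36 clone in red. Right, the 11 clones with the highest means (diamonds), their SD (bars) and their values on single arrays (dots); the Cd36 clone is 9th, its 4 values reach from 2.06 to 3.06, and they overlap those of its neighbours.

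The clones around Cd36 in this order were not separated from it by more than their spread. RNABD06, which matched no name, had a mean of 2.61 ± 0.72 (SD, n = 4), and RNABA94, matched to an expressed sequence tag, had 2.49 ± 0.88 (SD, n = 3). Their means differed from that of Cd36 by 0.071 and 0.049, each well under the SD of either clone. RNABD12, 2 places above Cd36 and without a name, had 2.72 ± 0.44 (SD, n = 4). The highest of all, RNABC95, had 3.57 ± 0.90 (SD, n = 3), and its lowest array (2.81) lay within the range of Cd36.

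The difference between the dye orientations is estimated apart from the mean where all 4 arrays gave a value, and it was tested against 0. Clones with high means were not centred on 0 in this difference, since the 10 others among the highest means were all negative (median -1.02). The choice of Cd36 by its high mean therefore bears on this test. Cd36 averaged 2.52 with the female sample in Cy5 and 2.56 with it in Cy3. The difference was -0.036 on the log2 scale, with an interval of -0.86 to 0.79 (95%, limma), and it did not pass the test (limma adjusted p = 0.996, 2 arrays per orientation). The spread within each orientation was larger than the difference between them, since the values were 2.18 and 2.85 in the one and 3.06 and 2.06 in the other. Of all 2070 clones, 12.3% had a smaller difference in size, and the median size was 0.16. No clone passed this test (0 of 2070, or 0% called, at an adjusted p under 0.05 in limma), whereas 124 were under 0.05 before adjustment. The value itself was not stable. It was -0.43 with the arrays scaled to equal spread, 0.46 without array 1, -0.54 without array 2, 0.30 without array 3 and -0.37 without array 4, so that its sign turned with the array left out, and it passed the test in none of these. The interval for Cd36 is wide, and a dye effect of up to 0.86 is within it.

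The other strongly female-predominant clones differed in 1 direction. All 10 other clones among the 11 highest means were lower with the female sample in Cy5 than in Cy3, by differences from -1.49 to -0.13 (log2) with a median of -1.02. Whether Cd36 differs from them in this was not tested. Dye orientation and the animals used cannot be told apart here, because the numbered animals of arrays 3 and 4 are not that of array 2. For 2 of the 10 clones array 2 gave no value, so that array 1 stands alone for Cy3. Array 1, on which many of these clones were highest, belongs to the Cy3 side.

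**Figure D3:**
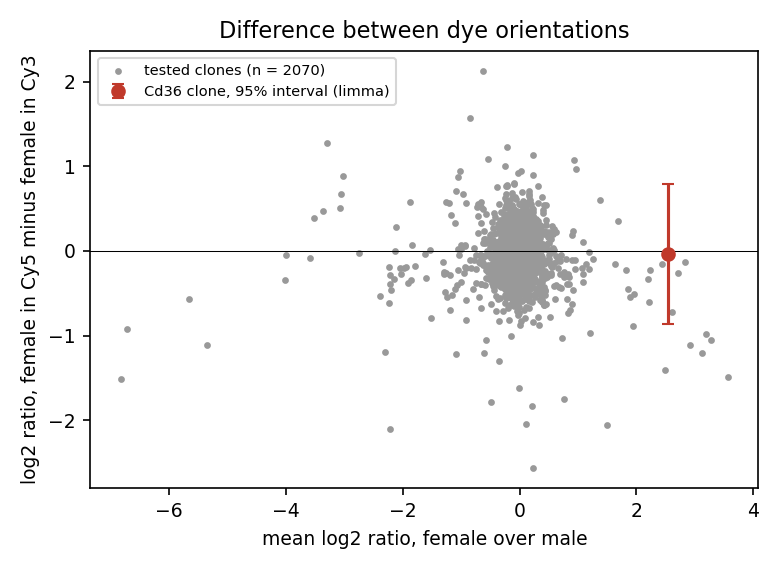
Log2 ratio with the female sample in Cy5 minus that with it in Cy3 (vertical) against the mean log2 ratio of female over male (horizontal) for 2070 tested clones, with the Cd36 clone in red and its 95% interval from limma. The Cd36 difference is -0.036, and its interval from -0.86 to 0.79 spans 0.

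The spread of Cd36 between arrays was large for the array as a whole but near the middle of that of clones with a mean over 1. Its SD of 0.49 was above that of 92.3% of the 1449 clones measured on all 4 arrays, whose median SD was 0.20. Among the 24 such clones with a mean over 1 the median SD was 0.43, and 13 of them had a smaller SD than Cd36. Most of these have smaller means than Cd36. Among the 11 clones with the highest means, only RNABD12 had a smaller SD (0.44). The SDs of the others there ran from 0.59 (RNABD18) to 1.39 (RNAA28), so that of Cd36 was small beside theirs. Among the 49 clones with a mean under -1, the male-predominant ones, the median SD was 0.58, and 16 had a smaller SD than Cd36. No array stood apart for Cd36, the largest gap at an end of its values being 0.20 of their range.

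**Figure D4:**
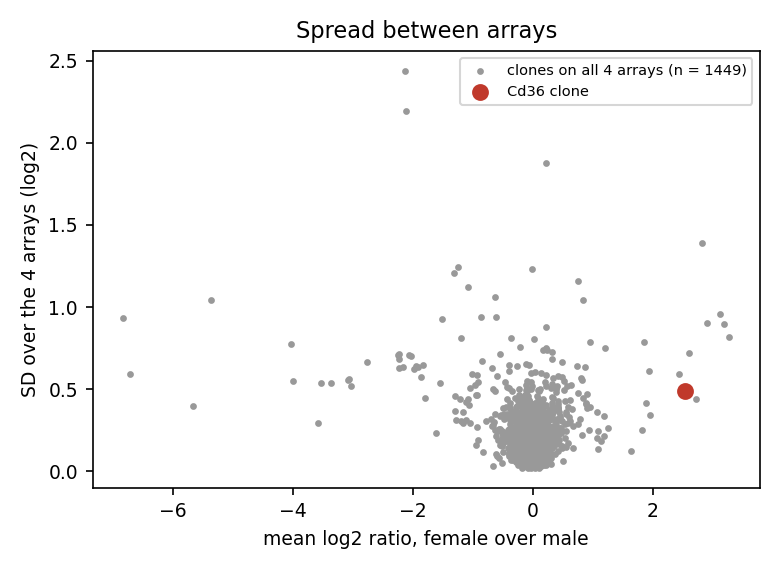
SD over the 4 arrays against the mean log2 ratio of female over male, for 1449 clones measured on all 4 arrays. The Cd36 clone (red) has an SD of 0.49 at a mean of 2.54, and clones far from 0 on either side have larger SDs than most clones near 0.

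The order of the arrays was also set beside that of other female-predominant clones. Each value was divided by its clone's mean. For Cd36 these shares were 1.20, 0.81, 0.86 and 1.12 on arrays 1 to 4. For the 23 other clones with a mean over 1 on all 4 arrays, the medians of the shares were 1.27, 0.97, 0.87 and 0.91. Cd36 was therefore like the others in being high on array 1 and low on array 3, and unlike their medians in being low on array 2 and high on array 4. Of the 23 other clones 14 were highest on array 1, 5 on array 2 and 1 on array 4, while 4 were lowest on array 2 and 7 on array 4. In the share on array 4, Cd36 was 2nd of all 24. Arrays 1 and 4 were the highest pair for 6 of the 24 clones, Cd36 included. These are 4 arrays only, and the shares are given as a description. The shares and the profiles below use the arrays without scaling. With the arrays scaled to equal spread, array 4 was the lowest of Cd36 (2.26), and shares and profiles were not computed on that scale.

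The clone with values most like those of Cd36 was RNABD18. Its entry is an expressed sequence tag in the one table of the study and is called similar to a Kruppel-like factor in another, so it is left unnamed here. RNABD18 had 3.21, 1.81, 2.21 and 2.50 on arrays 1 to 4, a root mean square distance of 0.23 (log2) from Cd36 over 4 arrays. It was the nearest of 1448 other clones measured on all arrays, and its mean was 2.43 ± 0.59 (SD, n = 4). The second nearest was already at 0.67. This was RNABK44, matched to hydroxysteroid sulfotransferase 2, which adds sulfate to steroids. Then came RNABD12 (0.68) and RNAA16 (0.73), both without a name, and RNAA17 (0.73), matched to the female steroid hydroxylase Cyp2c12. These distances include the mean itself, by which Cd36 was chosen.

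With the mean of each clone removed, only the profile over the arrays remains. Among the 23 other clones with a mean over 1, the nearest profile was that of RGIAP56 (0.18), followed by RNABD18 (0.20), RNAA18 (0.27), RNABK56 (0.28) and RNAA16 (0.32). RGIAP56 had 1.61, 0.98, 0.86 and 1.30 on arrays 1 to 4, again with arrays 1 and 4 as the higher pair. RGIAP56 and RNABK56 both match the entries of cytochrome P450 IIC6, a drug-metabolising enzyme, and of ferredoxin 1, an electron carrier of mitochondrial P450 enzymes, so their names cannot be told apart. RNAA18 was the single match of GDP dissociation inhibitor 1, which keeps Rab proteins in their inactive form.

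The 3 steroid sulfotransferase clones were less like Cd36 in profile, with distances of 0.53 to 0.55, places 15 to 17 of 23. They reached from 4.13 to 4.5 on array 1, 2.81 to 3.15 on array 2, 1.95 to 2.66 on array 3 and 2.77 to 2.97 on array 4. Cd36 lay below all 3 on arrays 1 and 2, and within their range on arrays 3 and 4. The Cyp2c12 clone RNAA17 had 2.18, 2.25, 1.49 and 1.92 and was highest on array 2, where Cd36 was lowest. The second Cyp2c12 clone, RNAA13, had 2.21, 2.42 and 2.09 on arrays 1, 2 and 4, and of the arrays that measured them both Cyp2c12 clones were higher than Cd36 on array 2 only. Alpha-1-B glycoprotein (RNAA28), a plasma protein, had the most distant profile of the 23 (1.02), with 4.48, 1.30, 3.37 and 2.14. The clones that are female-predominant on average were thus not ordered alike on every array.

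**Figure D5:**
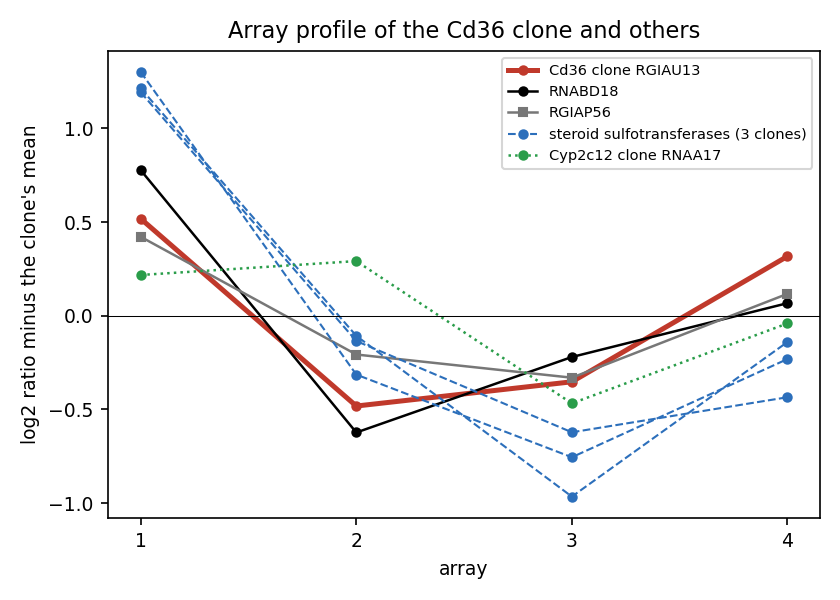
Log2 ratio of female over male minus the clone's own mean on arrays 1 to 4, for the Cd36 clone (thick red), RNABD18, RGIAP56, 3 steroid sulfotransferase clones and the Cyp2c12 clone RNAA17. Cd36, RNABD18 and RGIAP56 lie above their means on arrays 1 and 4 and below them on arrays 2 and 3, whereas all 3 sulfotransferase clones lie above theirs on array 1 alone.

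The clones that share the letters of the Cd36 identifier were also read, as a description. Whether the order of identifiers follows the position on the array was not tested. The series RGIAU holds 96 clones, of which 48 had no value on any array and 18 were measured on at least 3. The clones next to it in number, RGIAU12 and RGIAU14, had no value on any of the 4 arrays. The means of the other tested clones of the series lay between -0.28 and 0.87, and the only clone of the 18 with a mean over 1 was Cd36. The highest of the others was RGIAU15, without a name, with 0.79, 1.65, 0.10 and 0.94 on arrays 1 to 4 (mean 0.87 ± 0.64, SD, n = 4). It was highest on array 2, where Cd36 was lowest. Over all 932 tested clones whose identifiers begin with RGI, Cd36 had the highest mean, and 2 of these 932 had a mean over 2, against 12 of the other 1138 tested clones. Of all 2070 tested clones, 32 had a mean over 1. The mean chose Cd36, so its place among these clones follows from that choice and checks nothing.

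Other genes of fatty acid and lipid handling could be followed only through the tables of the study, whose names were assigned by the same match of ratios. The list taken here holds 7 entries besides Cd36, all male-predominant. It was picked from the entries tabulated with a female over male ratio, which the study chose on these samples, and it was picked with results known. Other entries with a part in lipid metabolism, such as the female-predominant carboxylesterase 2 (RNABX77, mean 1.83), were not put on the list. The 7 are ATP citrate lyase, the cytosolic source of acetyl-CoA for lipogenesis, fatty acid synthase, fatty acid binding protein 5, which carries fatty acids within cells, phytanoyl-CoA hydroxylase, which begins the breakdown of a branched-chain fatty acid, a lysophosphatidic acid acyltransferase-like enzyme of phospholipid synthesis, apolipoprotein A-IV of lipoprotein particles and choline kinase of phosphatidylcholine synthesis. Together they matched 21 clones, with means from -1.20 to -0.66 (log2) and a median of -0.70, against a median of 0.0036 over all tested clones. Of these 21 clones, 17 were called lower and 0 higher in female liver (limma adjusted p under 0.05), against 6.04% called lower and 3.43% called higher of all 2070 clones. The match set these means, so the counts say nothing on their own about lipid genes.

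Only ATP citrate lyase, besides Cd36, had a single matching clone by the mean. By the median over arrays ATP citrate lyase matched 2 clones and Cd36 0, so the name of RNABM80 is tentative too. RNABM80 had -1.14, -1.41, -0.50 and -1.39 on arrays 1 to 4, with a mean of -1.11 ± 0.42 (SD, n = 4), so that it was lower in female liver on every array. The smallest difference of Cd36 fell on array 2, and that of RNABM80 on array 3. Fatty acid synthase matched 2 clones with means of -0.83 and -0.85, phytanoyl-CoA hydroxylase 2 clones with a mean of -1.20 each, and apolipoprotein A-IV 2 clones with a mean of -0.70 each. The acyltransferase-like entry matched 5 clones, and fatty acid binding protein 5 and choline kinase shared the same 9. For small ratios many clones share a value to 2 decimals, and these names are tentative.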

How the data were processed

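Total liver RNA was labelled by the authors with Cy3 or Cy5 and hybridised to spotted cDNA arrays. Spots were quantified in GenePix Pro, the local background was subtracted, spots under 2 times background were flagged and left out, and each array was normalized by lowess with the SMA package in R (versions not given in the sources used here). Log2 ratios were deposited, and a flagged spot is blank. Neither scale nor direction accompanies them. They were taken as female over male on the log2 scale because 2 raised to a row mean gives a tabulated ratio, and the column medians, between -0.0021 and 0.0094, were left as they are. Spot intensities were not used here, so saturated or weak spots could not be checked, and precision is further limited by having 4 arrays.

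Clones on at least 3 of 4 arrays were tested in limma 3.58.1 (R 4.3.3), with an intercept for sex and, in a second fit, a term for dye orientation. P-values are two-sided and adjusted by Benjamini-Hochberg over all clones, with a threshold of 0.05. Both fits were run on simulated data with independent normal noise and a planted shift well above the dye differences of Cd36. That run does not show how small a dye difference the test can find. Clones named are RGIAU13, its neighbours in mean and in identifier, the 5 nearest in value and the 5 nearest in profile, and the fatty acid entries. A few further clones were chosen once their values were known, among them the highest mean and the sulfotransferase and Cyp2c12 clones. The clone and all lists were chosen with earlier results of these data known.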

Additional observations from a re-analysis of the deposited data

Results flagged for a closer look

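Of 17 sets of 4 values examined, 2 held a value far from the others, and chance gives about 1 in 20. The clone next above Cd36 in mean, RNABD06, had 3.69 on array 2 and at most 2.3 on the other arrays, a gap of 0.96 of its range. The median absolute deviation of all ratios was 0.36 on array 4, against at most 0.26 elsewhere, and this gap is 0.89 of the spread of the 4 arrays.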

How the results depend on the processing

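The mean log2 ratio of Cd36 lay between 2.52 and 2.56 with median centring, equal scaling and the median over arrays, and between 2.36 and 2.70 with each array left out. Its rank was 14 when clones on at least 2 arrays were admitted, between 8 and 9 under the other settings and between 7 and 10 with each array left out. The SD was 0.43 to 0.54 with each array left out. The dye difference passed the test under none of the settings run (lowest adjusted p in limma 0.80). It was -0.43 with equal scaling and ranged from -0.54 to 0.46 with each array left out, being 0.46 without array 1 and 0.30 without array 3. Matched by median, 0 clones carried the name Cd36, and the fatty acid entries matched 13 clones in place of 21. The 196 clones called over the array became 0 in an ordinary 1-sample test (402 at an unadjusted p under 0.05) and 118 to 169 with each array left out, 118 being without array 1. The settings for the SD, for matching the fatty acid entries and the ordinary 1-sample test were chosen after the data were seen. Each ratio already sets a female against a male sample on the same array, so no further pairing was applied.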
